A study of Mus musculus with 8 samples.

Results

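The genes described here are Cdh17 and 9 genes of an intestinal-type epithelial programme, taken by name from the deposited count table: Cdh17, Vil1, Cdx1, Cdx2, Hnf4a, Lgals4, Muc13, Agr2, Apob and Krt20. All 10 names matched exactly 1 row of the 54532 genes. The libraries were made from orthotopic pancreatic tumours of C57BL/6 mice. The implanted KPC cells are a mouse line of pancreatic ductal adenocarcinoma. The TLQP21 group received TLQP21, a peptide cleaved from the neurosecretory protein VGF, for 2 weeks and held 4 libraries. The Saline group received saline for the same 2 weeks and also held 4 libraries. The labels give all 8 libraries the same implanted line and mouse strain, and give neither age nor dose. Whole tumours were sequenced, so host stroma, immune cells and adjacent pancreas were read together with the tumour cells, and fewer cells of a type cannot be told apart from less RNA per cell. The series asked which transcripts accompany the slower tumour growth that its design text reports under the peptide.

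The genes were chosen with an earlier reading of these counts known, and Cdh17 was chosen by its higher counts in TLQP21, where it ranked 8 by unadjusted p among genes higher in that group. The treatment contrast was therefore already used, and the differences between treatments below are descriptions without a test. Nothing in the sources used here says that the libraries came from separate animals, so the spread between them may be partly technical.

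The gut epithelium is held in its identity by a small set of transcription factors. The caudal homeobox factors Cdx1 and Cdx2 and the nuclear receptor Hnf4a switch on genes of the apical membrane, of secretion and of lipid export. Adenocarcinomas of the pancreas can carry such intestinal genes, in part those shared by gastric and pancreatic epithelia, which arise from neighbouring foregut endoderm. Cdh17 encodes an atypical cadherin that joins enterocytes laterally and has a short cytoplasmic tail.

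These genes were expressed at moderate to high levels in every tumour, except Cdx1. Levels per kilobase were compared as RPKM, which is CPM (reads scaled to library size, here after TMM scaling) divided by gene length in kilobases, averaged over all 8 libraries. Lgals4, a galectin of apical membrane rafts, was the most abundant at 191 RPKM, and Krt20, a keratin of differentiated gut epithelium, followed at 125 RPKM. Their ranges touched, with the lowest Lgals4 library at 147 RPKM and the highest Krt20 library at 148 RPKM. Cdh17 at 49.2 RPKM, Vil1 at 48.7 RPKM and Hnf4a at 47.5 RPKM formed a tier that could not be put in order. Their ranges over libraries were 39.3 to 62.3 RPKM for Cdh17, 38.2 to 53.03 RPKM for Vil1 and 44.8 to 50.9 RPKM for Hnf4a. Apob at 34.7 RPKM spread from 21.5 to 48.3 RPKM, so that it overlapped this tier and also Agr2, which had 22.4 RPKM (13.2 to 28.8). Muc13 at 12.9 RPKM and Cdx2 at 12.1 RPKM were the lowest of the expressed genes and overlapped each other. Cdh17 lay above 94.6% of the 18238 genes tested, and Cdx2 above 73.6%.

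**Figure D1:**
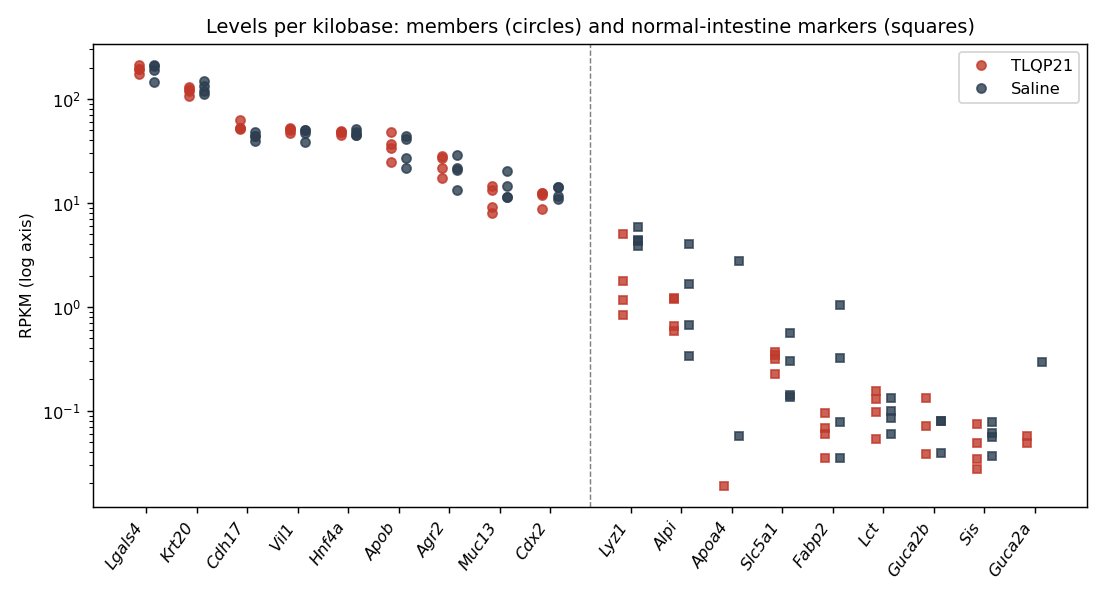
RPKM on a log axis for 9 members (circles) and for markers of normal intestine (squares), each point a library, with TLQP21 left of Saline; libraries at 0 are not drawn. The members run from 191 RPKM for Lgals4 to 12.1 RPKM for Cdx2, and every marker point lies below all of them.

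The intestinal regulators were present in unequal measure. Cdx2 had 28.2, 26.7, 28.5 and 19.7 CPM in TLQP21 libraries 1 to 4 and 24.7, 26.6, 32.1 and 32.3 CPM in Saline libraries 1 to 4. The groups overlapped, and TLQP21 4 was the lowest library. The mean was 25.8 ± 4.12 CPM in TLQP21 and 28.9 ± 3.83 CPM in Saline (SD, n = 4 each), a log2 fold change of -0.17 (SE 0.15, TLQP21 over Saline), which was -0.06 without TLQP21 4.

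Cdx1, the close relative of Cdx2 in the colon and small intestine, was nearly absent. It had 1 read in total over the TLQP21 libraries, in TLQP21 3, and 12 reads over the Saline libraries, of which 7 were in Saline 3 and 0 in Saline 1. Cdx1 was therefore below the low-count filter and was not tested. The ratio of summed reads, scaled to library size, was 0.0748, TLQP21 over Saline, with an exact 95% interval of 0.00175 to 0.506. That interval covers counting error only, and 7 of the 12 Saline reads came from a single library.

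Hnf4a was the steadiest of the 9 expressed members. It had 220, 237, 233 and 232 CPM in TLQP21 libraries 1 to 4 and 231, 246, 219 and 216 CPM in Saline libraries 1 to 4. The highest library was 1.14-fold above the lowest, and the groups overlapped. Means were 231 ± 7.58 CPM in TLQP21 and 228 ± 13.4 CPM in Saline, a log2 fold change of 0.02 (SE 0.081), which lay between -0.02 without Saline 4 and 0.05 without Saline 2. Hnf4a is known to be transcribed from alternative promoters, and counts per gene do not tell their transcripts apart. The antisense gene Hnf4aos, which overlaps it, had 20 reads in all.

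Both Hnf4a start windows are printed because they carry different matches to motifs of the gut factors. RefSeq windows on GRCm38.p6, from 250 bases before to 50 after a start, were found for 8 of the 10 members, all but Cdh17 and Cdx1, with 2 windows each for Hnf4a and Muc13. Both strands were searched for 5 motifs, none of which is contained in another. The CDX-type motif was spelled CAATAAA. For the binding sites of Hnf4 receptors the letters were CAAAGTCCA. The HNF1-type motif, for factors that act with Hnf4a in liver and gut, was GTTAAT. Sites of GATA factors were sought as AGATAA. The TATA box, which positions the start of transcription, was TATAAA. Capitals mark matches, on either strand, in this and the later windows, which are written 5′ to 3′ on the gene's strand. The upstream window is chr2:163506607-163506906 and the downstream window chr2:163546905-163547204, both on the plus strand.
Hnf4a upstream: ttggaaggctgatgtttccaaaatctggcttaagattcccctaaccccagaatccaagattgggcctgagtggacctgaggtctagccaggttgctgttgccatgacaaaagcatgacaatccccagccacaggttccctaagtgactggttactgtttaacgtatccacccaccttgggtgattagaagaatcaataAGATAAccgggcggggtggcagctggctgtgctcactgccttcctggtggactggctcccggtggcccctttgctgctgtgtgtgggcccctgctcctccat
Hnf4a downstream: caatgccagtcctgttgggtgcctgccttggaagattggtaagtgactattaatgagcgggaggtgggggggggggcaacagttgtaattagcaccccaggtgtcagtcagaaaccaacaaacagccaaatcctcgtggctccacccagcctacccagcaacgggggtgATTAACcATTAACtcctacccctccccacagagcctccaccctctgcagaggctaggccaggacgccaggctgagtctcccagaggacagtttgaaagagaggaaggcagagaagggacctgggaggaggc
The upstream window holds a GATA-type match that begins at -52 relative to the start, and the downstream window 2 HNF1-type matches on the opposite strand, at -81 and -74. Among all 32851 windows, 11.2% hold the GATA-type letters and 7.1% the HNF1-type letters. The Cdx2 window holds an HNF1-type match at -30.

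Cdh17 itself was higher in every TLQP21 library than in every Saline library. It had 235, 234, 228 and 279 CPM in TLQP21 libraries 1 to 4 and 196, 198, 217 and 176 CPM in Saline libraries 1 to 4. TLQP21 4 stood above the other TLQP21 libraries, and Saline 4 was the lowest of all. Means were 244 ± 23.5 CPM in TLQP21 and 197 ± 16.8 CPM in Saline (SD, n = 4 each). The log2 fold change was 0.31 (SE 0.10), and it was 0.24 without TLQP21 4, 0.26 without Saline 4 and 0.36 without Saline 3. Cdh17 (ENSMUSG00000028217) lies on chromosome 4 from 11758147 to 11817895 of GRCm38, on the plus strand, and is annotated as protein-coding.

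The groups overlapped once Cdh17 was set against the epithelial content of the libraries, though its mean stayed higher in TLQP21. The summed CPM of 12 general epithelial genes, among them Epcam, Cdh1 and the simple keratins Krt8, Krt18, Krt19 and Krt7, was 6564 to 6829 in TLQP21 and 6065 to 6601 in Saline. Of these 12 genes, 9 had a log2 fold change above 0, with a median of 0.08, and 0 passed the edgeR threshold. Krt18 had 1409 ± 68.2 CPM in TLQP21 and 1321 ± 83.95 CPM in Saline, Krt19 had 1148 ± 128 CPM in TLQP21 and 1021 ± 58.2 CPM in Saline, and Krt8 had 1603 ± 73.8 CPM in TLQP21 and 1499.8 ± 48.4 CPM in Saline. As a share of that sum, Cdh17 was 3.58, 3.44, 3.34 and 4.14% in TLQP21 libraries 1 to 4 and 3.08, 2.998, 3.58 and 2.88% in Saline libraries 1 to 4. Saline 3 lay above 2 TLQP21 libraries on this measure, so the groups overlapped (3.63 ± 0.359% in TLQP21 and 3.13 ± 0.307% in Saline). Against the mean log2 CPM of the 12 genes, Cdh17 stood 0.88 ± 0.28 higher in TLQP21 and 0.64 ± 0.22 higher in Saline, again with Saline 3 (0.96) above 3 TLQP21 libraries. The difference of these means was 0.24, beside the Cdh17 log2 fold change of 0.31. With the group means removed, Cdh17 had an r of -0.50 with the mean log2 CPM of the 12 genes. The part of epithelial content in the Cdh17 difference was not tested. Hnf4a, by contrast in sign, took 3.42 ± 0.0595% in TLQP21 and 3.63 ± 0.0745% in Saline, with the groups apart as a share of the sum and overlapping against the mean log2 CPM.

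**Figure D2:**
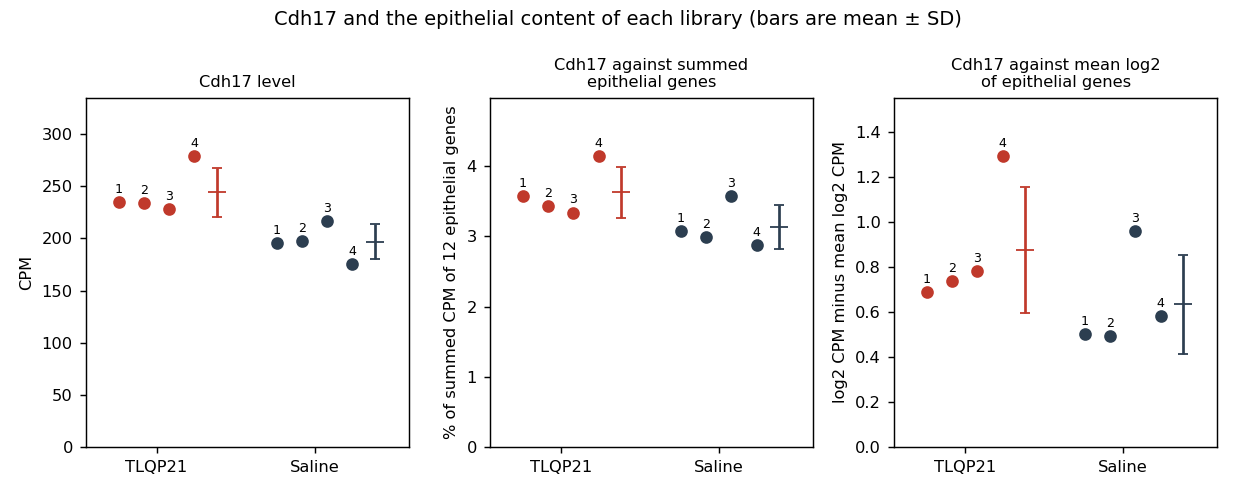
Cdh17 in each library, with TLQP21 left of Saline and replicate numbers beside the points, as CPM, as a percentage of the summed CPM of 12 epithelial genes and as log2 CPM minus their mean log2 CPM; bars are mean ± SD. The groups are apart in CPM (228 to 279 in TLQP21 and 176 to 217 in Saline) and overlap in the other panels, where Saline 3 is high.

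The genes of the microvillus, the apical membrane and the keratin skeleton overlapped between the treatments. Vil1 encodes villin, the actin-bundling protein of microvilli. It had 184, 188, 179 and 168 CPM in TLQP21 libraries 1 to 4 and 169, 180, 179 and 136 CPM in Saline libraries 1 to 4. Saline 4 was the lowest, and the other 7 libraries lay within 168 to 188 CPM. Its log2 fold change was 0.11 (SE 0.11) and 0.02 without Saline 4. Vil1 overlaps Usp37 on the opposite strand, which had 10981 reads in all libraries, and the strand setting of the counting is not given, so some reads may belong to either gene.

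Lgals4 had 453, 492, 453 and 399 CPM in TLQP21 libraries 1 to 4 and 436, 488, 478 and 341 CPM in Saline libraries 1 to 4. The groups overlapped widely, and Saline 4 was again the lowest. For Lgals4 the log2 fold change was 0.04 (SE 0.13), and it was -0.06 without Saline 4, -0.0019 without TLQP21 2 and 0.10 without Saline 2. Krt20 had 254, 243, 206 and 232 CPM in TLQP21 libraries 1 to 4 and 286, 258, 217 and 229 CPM in Saline libraries 1 to 4. In both groups libraries 1 and 2 lay above libraries 3 and 4. For Krt20 the log2 fold change was -0.08 (SE 0.11), and it was -0.0041 without Saline 1, -0.025 without TLQP21 3, -0.12 without Saline 4, -0.13 without TLQP21 1 and -0.14 without Saline 3.

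The secretory members varied more. Agr2, a protein disulfide isomerase of mucus-secreting cells, had 36.7, 35.1, 22.5 and 28.1 CPM in TLQP21 libraries 1 to 4 and 27.8, 37.2, 27.04 and 17.1 CPM in Saline libraries 1 to 4. The log2 fold change was 0.17 (SE 0.23), and single libraries moved it in both directions. It was -0.0072 without Saline 4, 0.067 without TLQP21 1, 0.09 without TLQP21 2, 0.29 without TLQP21 3 and 0.35 without Saline 2. Muc13, a transmembrane mucin of the gut surface, had 44.4, 40.5, 24.1 and 27.98 CPM in TLQP21 libraries 1 to 4 and 34.8, 44.1, 61.8 and 34.6 CPM in Saline libraries 1 to 4. Its highest library, Saline 3, was 2.56-fold above its lowest, TLQP21 3, the widest spread of the 9. The log2 fold change of Muc13 was -0.36 (SE 0.24) and was -0.14 without Saline 3 and -0.22 without TLQP21 3. Muc13 overlaps the antisense gene Gm15657, which had 160 reads in all.

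Muc13 was the only member with the exact HNF4-type letters in the windows searched, and other spellings of such sites were not searched. The match was in its inner start window at chr16:33794239-33794538 on the plus strand, which is shown for that reason.
Muc13 inner: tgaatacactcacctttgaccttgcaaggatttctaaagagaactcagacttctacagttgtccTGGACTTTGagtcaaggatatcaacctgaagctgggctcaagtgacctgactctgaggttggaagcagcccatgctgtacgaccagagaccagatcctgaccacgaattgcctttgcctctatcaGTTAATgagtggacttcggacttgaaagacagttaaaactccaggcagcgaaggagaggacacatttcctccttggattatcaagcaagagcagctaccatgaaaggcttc
The match lies on the opposite strand from -186, and an HNF1-type match begins at -61. The HNF4-type letters occur in 0.475% of all windows. None of the 10 windows of the 8 matched members held the CDX-type letters, which 4.6% of all windows hold. Krt20 had a TATA box at -29 and a GATA-type match at -223, and Apob a TATA box at -60. TATAAA occurs in 13.6% of all windows.

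Apob, the structural protein of chylomicrons and of lipoproteins from liver, had 349, 471, 511 and 673 CPM in TLQP21 libraries 1 to 4 and 376, 574, 619 and 299 CPM in Saline libraries 1 to 4. The groups overlapped over most of their range. Means were 501 ± 134 CPM in TLQP21 and 467 ± 154 CPM in Saline, with a log2 fold change of 0.10 (SE 0.26), which was -0.08 without TLQP21 4, -0.07 without Saline 4, 0.0101 without Saline 1, 0.24 without TLQP21 1 and 0.27 without Saline 3. Hepatocyte transcripts were abundant in a single library. The summed CPM of 14 hepatocyte markers was 33.6 to 81.4 in TLQP21, 5462 in Saline 2 and 42.9 to 65.01 in the other Saline libraries, and none of the 14 was at 0 over all libraries. Of 9 tested hepatocyte genes, 0 had a log2 fold change above 0 and 0 passed, with 7 at an unadjusted p under 0.05 and a median of -5.12. Alb, the serum albumin gene, had 2543 CPM in Saline 2 and 0.0681 to 0.401 CPM in the other libraries. Apob was at 299 CPM or more in those 7 libraries, and its log2 fold change without Saline 2 was 0.21. The part of hepatocyte transcripts in the Apob level of Saline 2 was not tested. Mttp, the transfer protein that loads lipid onto Apob, was far lower, at 1.27 RPKM against 34.7 RPKM for Apob.

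**Figure D3:**
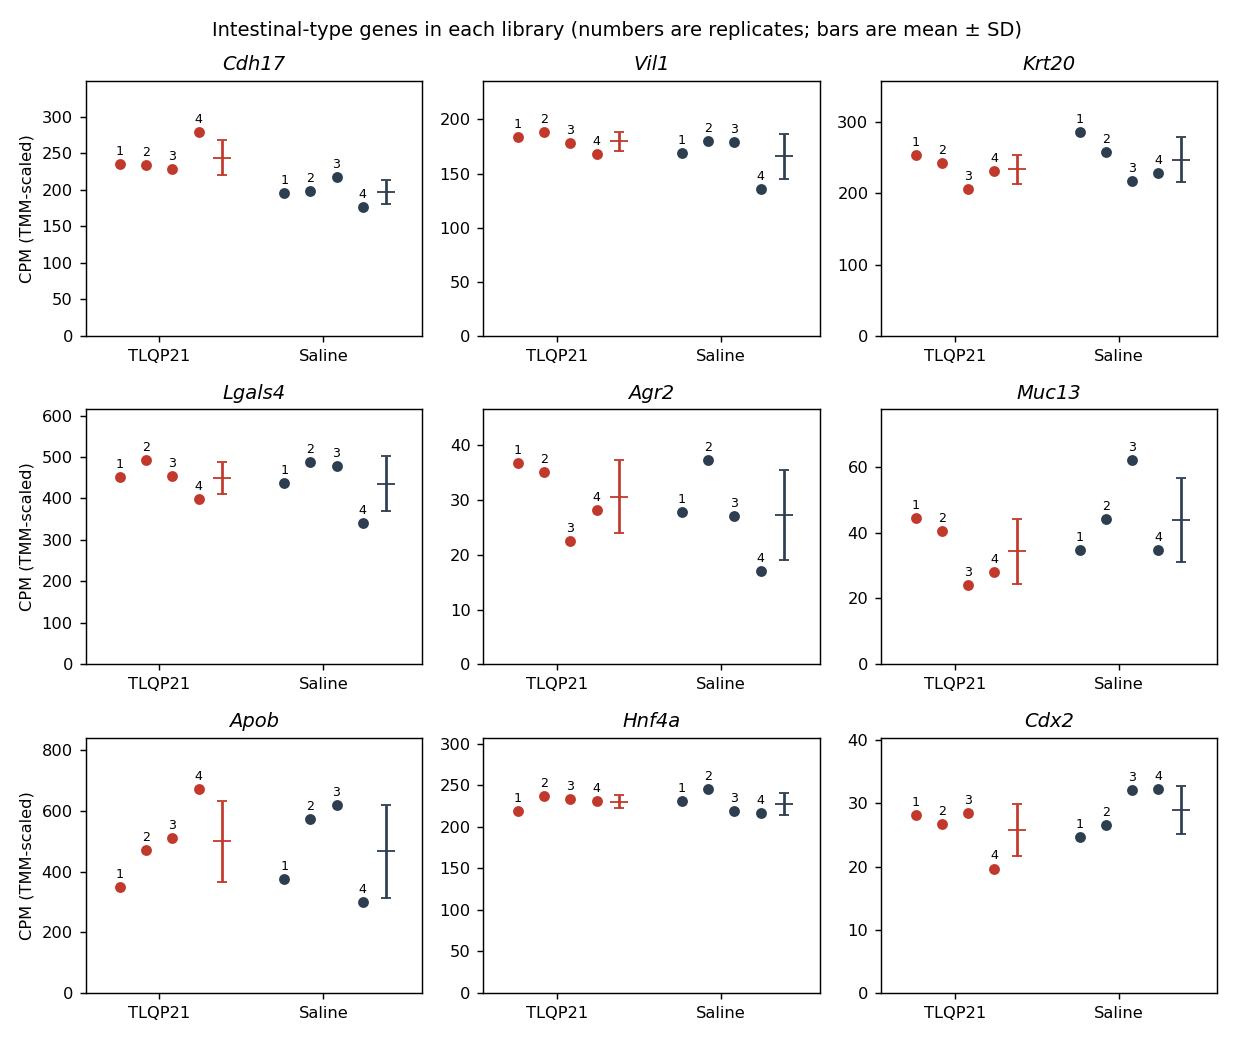
CPM after TMM scaling of the 9 expressed members in each library, with TLQP21 left of Saline, replicate numbers above the points and mean ± SD beside them. Cdh17 shows no overlap between the groups; the other 8 genes overlap, and Saline 4 is the lowest library for 6 of the 9.

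Across the 9 tested members, 6 had a log2 fold change above 0 and 3 below, with a median of 0.04. Over all 18238 genes 50.6% lay above 0 and the median was 0.0020. By edgeR's quasi-likelihood test with Benjamini-Hochberg adjustment at 0.05, 0 of the 9 members passed, beside 0% of all genes, and the smallest adjusted p of any gene was 0.238. At an unadjusted p under 0.05 stood 1 member, Cdh17, beside 3.06% of all genes. DESeq2 and limma's voom with sample quality weights each called 0 members, and over all genes 4 and 1. The CPM ranges were apart with TLQP21 above for 1 member, Cdh17, beside 0.811% of all genes (1.66% in either direction). These figures are given without inference, since Cdh17 was named from this contrast.

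Libraries 1 and 2 of each group carried Xist and libraries 3 and 4 Y-linked transcripts, a split that the labels do not mention and that was balanced between the treatments. Xist had 9960 and 10000 reads in TLQP21 1 and 2 and 10625 and 10036 reads in Saline 1 and 2, and at most 14 in any other library. Whether the split lies in the hosts or in the implanted cells was not tested. The log2 ratio of TLQP21 over Saline for Cdh17 was 0.25 within the 4 libraries with Xist and 0.37 within the 4 with Y-linked reads. Both had to be above 0, since the groups did not overlap. In 5 members the ratio had the same sign in both kinds of library, and in 4 the signs were opposite. The ratios were 0.11 and -0.83 for Muc13, 0.10 and -0.44 for Cdx2, -0.20 and 0.45 for Apob and -0.06 and 0.09 for Hnf4a, with Xist libraries first. Whether these ratios differed between the kinds was not tested.

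**Figure D4:**
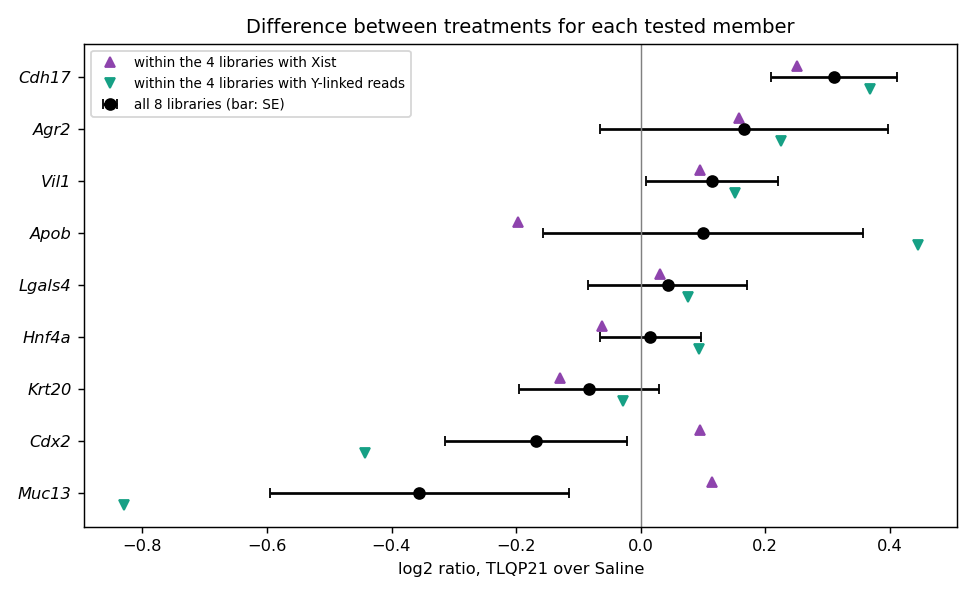
Log2 ratio of TLQP21 over Saline for each tested member, with the edgeR estimate from all 8 libraries (circles, bars are SE) and the ratios within the 4 libraries with Xist (triangles up) and within the 4 with Y-linked reads (triangles down). Cdh17 has the highest estimate, 0.31, and Muc13 the lowest, -0.36.

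Within the treatment groups the members were unequally close to each other. For each pair the deviations of log2 CPM from the group means were correlated over the 8 libraries, and an exact two-sided test permuted libraries within groups (576 arrangements, smallest p 0.00174). The permutation did not keep the split by Xist and Y-linked reads. Its p-values therefore treat the libraries of a group as interchangeable. Of 36 pairs, 27 had r above 0, with a median of 0.31, and 0 passed after adjustment over the 36. With 576 arrangements, a pair that alone reached the smallest p of 0.00174 would not have passed that adjustment either. That 0 passed therefore cannot decide whether any particular pair, however close, was related. The rho given beside r is the correlation of ranks over the 8 libraries, after the group means of the ranks were removed. The closest pair was Vil1 and Lgals4 (r = 0.98, exact permutation p = 0.00347, adjusted p = 0.125), with rho = 0.87 (exact permutation p = 0.0156, adjusted p = 0.562). Without Saline 4 and TLQP21 4, the libraries farthest from the Vil1 median, r was 0.93. With the split by Xist and Y-linked reads also removed it was 0.98, while each kind alone held 4 libraries, too few for a correlation.

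The start windows of Vil1 and Lgals4, shown as those of the most closely matched pair, held none of the 5 motifs. They are chr1:74409134-74409433 and chr7:28833544-28833843, both on the plus strand.
Vil1: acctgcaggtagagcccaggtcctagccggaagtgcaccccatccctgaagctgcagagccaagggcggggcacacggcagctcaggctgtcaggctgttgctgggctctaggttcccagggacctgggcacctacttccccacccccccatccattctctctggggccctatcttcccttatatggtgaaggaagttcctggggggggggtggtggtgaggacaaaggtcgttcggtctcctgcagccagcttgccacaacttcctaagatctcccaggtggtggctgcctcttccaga
Lgals4: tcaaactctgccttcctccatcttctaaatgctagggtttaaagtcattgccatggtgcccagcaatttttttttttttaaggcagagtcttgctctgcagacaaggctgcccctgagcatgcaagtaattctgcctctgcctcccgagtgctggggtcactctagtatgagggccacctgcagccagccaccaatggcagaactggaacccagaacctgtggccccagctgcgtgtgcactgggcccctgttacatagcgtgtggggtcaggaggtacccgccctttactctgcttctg
The GC content was 61.7% for Vil1 and 54.0% for Lgals4, against a median of 52.7% over all windows.

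Of the other members, Apob had the highest r with Cdh17, at 0.80 (exact permutation p = 0.0365, adjusted p = 0.604; rho = 0.69, exact permutation p = 0.111, adjusted p = 0.688). Without Saline 4 and TLQP21 4 that r was 0.40, so the relation rested on those libraries, in which both genes were at their lowest and highest. The r of Cdh17 was 0.35 with Vil1 (exact permutation p = 0.422, adjusted p = 0.762; rho = 0.21, exact permutation p = 0.677; 0.53 without Saline 4 and TLQP21 4) and 0.24 with Lgals4 (exact permutation p = 0.576, adjusted p = 0.769; rho = 0.15, exact permutation p = 0.774; 0.37 without Saline 4 and TLQP21 4). With Cdx2 it was -0.60 (exact permutation p = 0.144, adjusted p = 0.680; rho = -0.40, exact permutation p = 0.375), and 0.88 without the same 2 libraries, so that its sign turned. The r of Cdh17 was 0.33 with Agr2 and 0.27 with Muc13, and -0.03 and 0.81 without those libraries. With the split by Xist and Y-linked reads also removed, it was 0.84 with Agr2, 0.81 with Muc13 and 0.78 with Apob. The place of Apob as the closest member therefore depended on that split being left in.

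**Figure D5:**
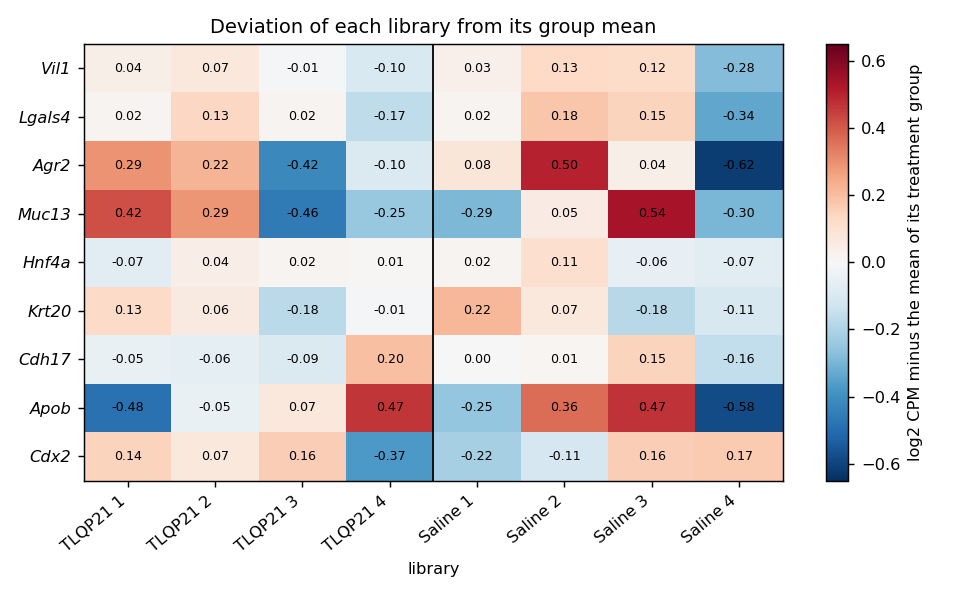
Log2 CPM of each member in each library minus the mean of its treatment group, red above and blue below, with TLQP21 libraries left of Saline libraries. Vil1 and Lgals4 share their pattern; Saline 4 is below its group mean for 8 of the 9 genes and above it for Cdx2.

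The 5 genes most like Cdh17 within the groups were not in the lists of intestinal genes used here. Those lists hold only a small part of the candidates, so nothing is read from this. Among 12238 genes with a mean of at least 5 CPM, the 5 with the highest r to Cdh17 over the 8 libraries, after removal of the group means, were Bcap29 (0.98), Ss18 (0.98), Dsg2 (0.98), Mpc1 (0.97) and Alg5 (0.97). Dsg2 encodes a desmosomal cadherin, Mpc1 a subunit of the mitochondrial pyruvate carrier and Ss18 a subunit of chromatin-remodelling complexes. The median r over all candidates was 0.023. Among the same 12238 candidates Apob ranked 768 and Cdx2 9561, the highest and lowest ranks of the other tested members. These are the extremes of many candidates over few libraries and are a description only. The groups overlapped for all 5. Alg5, which acts in protein glycosylation, came closest to separation, with 50.4 ± 5.64 CPM in TLQP21 and 42.2 ± 2.93 CPM in Saline and a log2 fold change of 0.25. It overlapped only in that TLQP21 3 had 45.9 CPM and Saline 3 had 46.2 CPM. Dsg2 averaged 98.4 ± 9.37 CPM in TLQP21 and 93.6 ± 7.52 CPM in Saline.

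Saline 4 was the lowest library for 6 of the 9 members, namely Cdh17, Vil1, Hnf4a, Lgals4, Agr2 and Apob. It also held the most acinar transcripts. The 14 acinar markers took 1.06 to 2.96% of counts in TLQP21, 5.01% in Saline 4 and 1.14 to 2.34% in the other Saline libraries, and none was at 0. All 14 had a log2 fold change below 0 (median -0.45), and 0 passed. With the acinar genes left out before scaling, the log2 fold change of Cdh17 was 0.30. Leaving those genes out changes the scaling only, and the part of acinar tissue in the low Saline 4 values was not tested. Summed counts were 29.03 to 33.5 M in TLQP21 and 28.4 to 28.96 M in Saline.

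Most of the 10 listed markers of mature intestine were near 0 in these tumours. The summed CPM of 10 defining genes was 5.55 to 11.1 in TLQP21 and 9.22 to 18.9 in Saline, 7 of the 10 had a mean below 1 CPM, and Defa24, a Paneth cell defensin, had 0 reads. Fabp2, the intestinal fatty acid-binding protein, had 0.0342 to 0.0926 CPM in TLQP21 and 0.0340 to 1.02 CPM in Saline. The highest Fabp2 level and the highest sum were both in Saline 2, the library with abundant hepatocyte transcripts, where Apoa4, an apolipoprotein gene of gut and liver, had 5.04 CPM. Saline 3 had the next highest sum, 16.8 CPM, of which Alpi, the intestinal alkaline phosphatase gene, made up 9.44 CPM. The part of hepatocyte transcripts in the sum of Saline 2 was not tested. Sis, which encodes sucrase-isomaltase, averaged 0.346 ± 0.155 CPM in TLQP21 and 0.432 ± 0.128 CPM in Saline. Lyz1, a lysozyme of Paneth cells, was the most abundant of them at 2.76 ± 2.40 CPM in TLQP21 and 5.81 ± 1.09 CPM in Saline. The defining genes of normal gut thus lay, per kilobase, below Cdh17 and Vil1 in every library.

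The wider programme was read from lists of related genes. Of 30 brush-border and absorptive genes, 23 were tested, 10 had a log2 fold change above 0, and 0 passed in either direction (median -0.07), with 1, Aqp8, at an unadjusted p under 0.05. The apical linker ezrin, Ezr, was the most abundant at 582 ± 34.5 CPM in TLQP21 and 579 ± 25.002 CPM in Saline. Anpep averaged 47.3 CPM, Cdhr5 29.3 CPM and Cdhr2 13.4 CPM over all libraries, while 9 of the 30 averaged below 1 CPM. The water channel gene Aqp8 had 0.508 ± 0.382 CPM in TLQP21 and 1.55 ± 0.809 CPM in Saline, and the brush-border myosin Myo7b had 46.3 ± 5.51 CPM in TLQP21 and 40.9 ± 1.56 CPM in Saline. Of 22 intestinal transcription factor genes, 21 were tested, 3 had a log2 fold change above 0, and 0 passed (median -0.11), while Atoh1, the factor that sets secretory fate, had 0 reads. Elf3, an epithelial ETS factor, had 223 ± 41.1 CPM in TLQP21 and 278 ± 46.8 CPM in Saline, and was highest in Saline 4. The liver and gut factor Creb3l3 had 1.82 ± 0.578 CPM in TLQP21 and 4.02 ± 4.02 CPM in Saline, with its highest level in Saline 2, the library with hepatocyte transcripts. Vdr, the vitamin D receptor gene, had 11.4 ± 1.97 CPM in TLQP21 and 13.9 ± 2.47 CPM in Saline.

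Of 21 goblet and secretory genes, 19 were tested, 7 had a log2 fold change above 0, and 0 passed (median -0.06). The most abundant was Zg16, a lectin also known from acinar zymogen granules, with 249.03 ± 150 CPM in TLQP21 and 328 ± 238 CPM in Saline and its highest level in Saline 4. Fcgbp, a mucus protein, had 28.8 ± 3.64 CPM in TLQP21 and 44.7 ± 28.3 CPM in Saline, and the tetraspanin Tspan8 276 ± 40.7 CPM in TLQP21 and 241 ± 17.3 CPM in Saline. Only 3 of the 21 averaged below 1 CPM over all libraries. Among these were Muc2, the main secreted mucin of the gut, which was tested, at 0.672 CPM, and Tff3 at 0.202 CPM. Of 12 stem and progenitor genes, all were tested, 6 had a log2 fold change above 0, and 0 passed (median 0.02). The most abundant of these per kilobase was Cd44, a hyaluronan receptor, with 937 ± 93.7 CPM in TLQP21 and 855 ± 72.1 CPM in Saline. Lgr5, a receptor of crypt stem cells, had 63.5 ± 19.3 CPM in TLQP21 and 51.8 ± 4.39 CPM in Saline, and Olfm4 63.1 ± 15.98 CPM in TLQP21 and 77.7 ± 18.8 CPM in Saline.

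Some foregut genes stood beside the intestinal ones. The summed CPM of 12 gastric markers was 420 to 469 in TLQP21 and 404 to 498 in Saline, led per kilobase by Tff2, a trefoil peptide, with 85.01 ± 25.5 CPM in TLQP21 and 126 ± 44.4 CPM in Saline. Tff2 was highest in Saline 4, the library with the most acinar transcripts. The tight-junction gene Cldn18 had 252 ± 37.98 CPM in TLQP21 and 214 ± 14.5 CPM in Saline. The sum rested largely on Cldn18 and Tff2, with means of 233 and 106 CPM over all libraries. Of the 12 markers, 4 averaged below 1 CPM, and the parietal cell pump subunit Atp4b had 3 reads in all libraries together. Of the 11 tested gastric genes, 6 had a log2 fold change above 0 and 0 passed, and of 11 tested duct genes 5 and 0. The duct markers summed to 5439 to 7077 CPM in TLQP21 and 5143 to 6512 CPM in Saline.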

How the data were processed

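Total RNA of tumour samples was purified with a Qiagen kit and read as paired ends on a NovaSeq after NEBNext Ultra library construction, per the labels' protocols. The authors deposited raw read counts as whole numbers for each gene, with gene names, lengths and GRCm38 coordinates, per the file headers. The submitters' processing notes name DESeq2 1.32.0, HISAT2 2.0.5 and featureCounts 1.5.0-p3, with build GRCm38 (mm10); the strand setting and annotation release are not given in the sources used here.

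From the counts, edgeR 4.0.16 in R 4.3.3 kept 18238 of 54532 genes by its default filter, applied TMM scaling and tested TLQP21 against Saline over all 8 libraries by quasi-likelihood, with Benjamini-Hochberg adjustment over all tested genes and a threshold of 0.05. CPM and RPKM use TMM-scaled totals; log2 CPM adds a prior count of 2. SE is that of the log2 fold change. DESeq2 1.42.0 and limma 3.58.1 were alternatives, beside other scalings, no filter, a replicate block, the Xist split as covariate and libraries left out. The fit was tested on simulated data. Same-numbered libraries were not treated as paired. The correlation of their deviations was 0.11, 0.19, 0.27 and -0.0537 for numbers 1 to 4, which does not settle whether they were paired. The members and lists were chosen with earlier results of these data known. Named genes were all members, the 5 genes most like Cdh17 and, per list, the most abundant gene per kilobase and up to 2 with the smallest unadjusted p; the hepatocyte, normal intestine, gastric, acinar and duct lists were named as lists, with markers where a value needed them. Muc2, Tff3, Fabp2, Mttp, Alb and other list members named only for their level were chosen after their values were seen. Promoter windows are from RefSeq, GRCm38.p6. Intervals cover counting error only.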

Additional observations from a re-analysis of the deposited data

Results flagged for a closer look

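Among 40 sets of 4 values checked (the 10 members and 10 marker sums in each group), 5 held a library far from the other 3, where chance alone would set apart about 1 in 20. Cdh17 was at 279 CPM in TLQP21 4, against 228 to 235 CPM in the other TLQP21 libraries. Cdx1 was at 0.0332 CPM, a single read, in TLQP21 3 and at 0 in the other TLQP21 libraries. The Cdx1 flag followed from that read alone, so it cannot be set against the 1 in 20. The 14 hepatocyte markers summed to 5462 CPM in Saline 2 and to 42.9 to 65.01 CPM in the other Saline libraries. The brush-border and absorptive genes summed to 1085 CPM in Saline 1 and to 1169 to 1181 CPM in the other Saline libraries. The gastric markers summed to 469 CPM in TLQP21 4 and to 420 to 425 CPM in the other TLQP21 libraries.

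The Cdx2 ratio had opposite signs in the 2 kinds of library. Within the libraries with Y-linked reads both TLQP21 libraries lay below both Saline libraries (log2 ratio -0.44), and within those with Xist both lay above (0.10). The difference between the kinds was not tested, and each rests on 2 libraries a group.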

How the results depend on the processing

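No member passed the threshold under any of the 17 alternatives, by edgeR, DESeq2 or limma. The count of genes called over the whole table was 0 with edgeR, 4 with DESeq2 and 1 with limma's voom with sample quality weights, and 0 in all fits that left out libraries. With the replicate number as a block, 0 genes and 0 members were called, and the Cdh17 log2 fold change was 0.31. The correlation of deviations between same-numbered libraries was 0.11, 0.19, 0.27 and -0.0537 for numbers 1 to 4, and not every library correlated best with its own number. Of 153 member fold changes recomputed, 0 moved by more than the SD of single libraries within groups. Leaving out 1 library of 4 can hardly shift a fold change that far, so this count says little about stability. The log2 fold change of Cdh17 ranged from 0.24 without TLQP21 4 to 0.36 without Saline 3. The signs of Cdh17, Vil1, Cdx2, Muc13 and Krt20 held in all 17. Those of Hnf4a and Lgals4 turned in 2 fits, of Apob in 2 and of Agr2 in 1, each with a library left out, and all 4 without Saline 4. Muc13 and Cdx2 were closer to 0 with limma's sample weights (-0.12 and -0.0096); the cause was not tested. Ranked by CPM instead of RPKM, Apob, with the greatest listed length, was at rank 1 and Cdh17 at rank 5. Cdx1, at 1 read in TLQP21 and 12 in Saline, was too low to test.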
